A study of Mus musculus with 8 samples.

Results

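Genes that mark the upper hair follicle were examined in mouse epidermis after imiquimod, which activates Toll-like receptor 7 and causes psoriasis-like inflammation when applied to skin. The 7 genes were Krt75, Krt79, Gata6, Lgr6, Lrig1, Plet1 and Barx2, out of 23171 genes in the deposited count table, and all 7 were among the 14004 genes that passed the filter on low counts. They were chosen by their names as markers of the companion layer, infundibulum, sebaceous duct and isthmus. It was already known from these data that Krt75, Krt79, Lgr6 and Gata6 were higher in the knockout, so their values in this contrast are a description and carry no test. Epidermis of 4 mice in which Hnrnpu was knocked out in the epidermis alone (cKO) was set against that of 4 mice labelled WT, and every mouse in both groups received imiquimod. Hnrnpu encodes a nuclear RNA-binding protein of the hnRNP family. The mouse strain, the age, the Cre driver, the imiquimod schedule and whether WT mice carried floxed alleles are stated in none of the sources used, and no epidermis without imiquimod was analysed here.

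The upper follicle joins the hair canal to the skin surface and takes in the funnel-shaped infundibulum, the duct that drains the sebaceous gland, and the isthmus between that gland and the bulge. Its stem cells are distinct from those of the bulge and are known to contribute to the sebaceous gland and, after wounding, to the interfollicular epidermis. The companion layer is a sheet of flattened cells between the outer and inner root sheaths of the follicle.

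Libraries held 37158621 to 38865722 counts. The libraries were labelled as keratinocytes of the epidermis, and the keratinocyte keratins Krt5, Krt14, Krt1 and Krt10 each had at least 240988 counts in every library, whereas Col1a1, Col1a2 and Col3a1 of dermal fibroblasts each had at most 117. Levels are given in CPM, the counts of a gene per 1e+06 counts of its library, after TMM scaling. Hnrnpu itself was at 190, 373, 355 and 312 CPM in cKO replicates 1 to 4, against 455, 424, 431 and 439 CPM in WT replicates 1 to 4, lower in every cKO library but not called (log2 fold change -0.51 ± 0.19 SE, adjusted p = 0.191 by edgeR). That value was -0.33 without cKO replicate 1, and which exons were deleted is not stated, so part of these counts can come from a deleted allele. The transcripts were measured in bulk tissue, where a larger number of follicle cells and more RNA per follicle cell cannot be told apart.

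The 250 bases before the annotated start of 4 members are shown because these genes bear the main contrast among the 7: Krt75, Krt79 and Lgr6 were higher in all cKO libraries, and Plet1 had the only lower mean. They come from RefSeq (GRCm38.p6), from which sequences were taken for 5 of the 7 members, and are written 5′ to 3′ on the strand of the gene. Capitals mark the matches found on either strand to 5 motifs. The binding motif searched for GATA factors was AGATAA, the same letters with G at the end, or either of these with T in place of the first letter. The motif of AP-1 factors was TGANTCA, in which N is any base, and the E-box searched was the palindrome CACGTG. The core promoter motif called the TATA box was searched as TATAAA, and the motif of the Wnt effectors of the TCF family as CTTTGA. None of the marked matches overlapped another.
Krt75, chr15:101573905-101574154, minus strand: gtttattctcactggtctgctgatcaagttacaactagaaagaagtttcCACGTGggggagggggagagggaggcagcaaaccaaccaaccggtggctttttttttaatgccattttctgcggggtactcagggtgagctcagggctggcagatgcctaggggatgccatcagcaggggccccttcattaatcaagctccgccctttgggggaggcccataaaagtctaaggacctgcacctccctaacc
Krt79, chr15:101940325-101940574, minus strand: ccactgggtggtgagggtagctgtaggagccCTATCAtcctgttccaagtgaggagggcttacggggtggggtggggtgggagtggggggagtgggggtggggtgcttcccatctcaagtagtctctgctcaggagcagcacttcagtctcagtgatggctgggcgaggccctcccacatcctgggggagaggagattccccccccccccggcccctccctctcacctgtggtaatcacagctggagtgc
Lgr6, chr1:135105277-135105526, minus strand: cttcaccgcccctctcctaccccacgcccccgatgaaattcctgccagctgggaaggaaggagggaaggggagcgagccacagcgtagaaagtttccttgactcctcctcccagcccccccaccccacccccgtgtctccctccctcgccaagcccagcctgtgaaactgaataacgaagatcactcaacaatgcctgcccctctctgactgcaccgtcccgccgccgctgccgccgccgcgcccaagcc
Plet1, chr9:50494275-50494524, plus strand: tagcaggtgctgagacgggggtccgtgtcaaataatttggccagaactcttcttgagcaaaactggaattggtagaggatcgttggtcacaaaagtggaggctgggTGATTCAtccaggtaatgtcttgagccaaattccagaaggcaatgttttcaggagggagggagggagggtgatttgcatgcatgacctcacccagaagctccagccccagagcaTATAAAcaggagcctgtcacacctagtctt

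The windows of Krt75 and Krt79 shared no marked motif. The Krt75 window held an E-box from position -201, counted back from the start, a match found in 6.02% of the 32851 RefSeq windows of the same length. The Krt79 window held a GATA match on the opposite strand from position -219, as did 26.5% of all windows. No match was found in the Lgr6 window. The Plet1 window held an AP-1 match from position -144 and a TATA box from position -30, present in 6.75% and 12.4% of all windows. These are matches of letters in short windows, and no binding was measured.

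**Figure D1:**
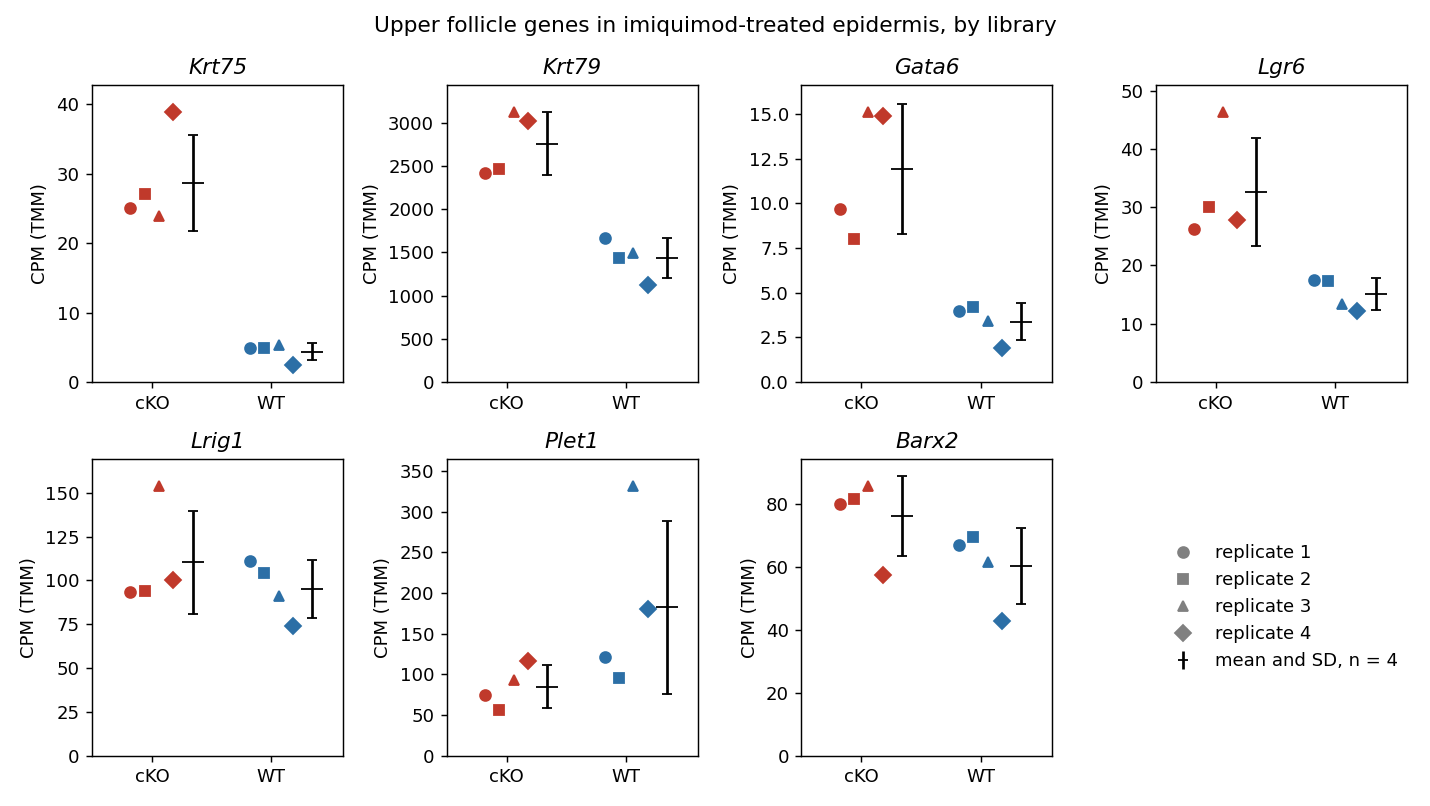
Levels of the 7 upper follicle genes in CPM on linear axes that start at 0, with 1 marker per library (replicate 1 to 4 by shape), cKO left and WT right, and the mean and SD of 4 libraries beside them. Krt75, Krt79, Gata6 and Lgr6 have no overlap between the genotypes, whereas Lrig1, Plet1 and Barx2 overlap.

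Among the structural genes, Krt75 had the widest difference. It encodes a type II keratin of the companion layer, and was at 25.0, 27.1, 23.9 and 38.9 CPM in cKO replicates 1 to 4, against 4.90, 4.84, 5.28 and 2.49 CPM in WT replicates 1 to 4. The lowest cKO library was above the highest WT library, and within WT replicate 4 stood below the others. The means were 28.7 ± 6.92 CPM in cKO mice and 4.38 ± 1.27 CPM in WT mice (SD, n = 4 each), a 6.56-fold difference (log2 fold change 2.71 ± 0.26 SE, 95% confidence interval 2.13 to 3.30). Krt75 rested on 962 to 1635 counts per cKO library and 93 to 190 per WT library.

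Krt79, a type II keratin of the infundibulum and sebaceous duct, was the most abundant member. Its level was 2426, 2473, 3129 and 3022 CPM in cKO replicates 1 to 4, against 1673, 1440, 1498 and 1119 CPM in WT replicates 1 to 4. The genotypes did not overlap, and replicates 3 and 4 were the higher cKO libraries. Krt79 averaged 2763 ± 365 CPM in cKO mice and 1432 ± 232 CPM in WT mice (SD, n = 4 each), a 1.93-fold difference (log2 fold change 0.95 ± 0.15 SE, 95% confidence interval 0.61 to 1.28).

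Of the transcription factors, Gata6, a zinc-finger factor of the upper follicle and sebaceous duct lineage, was at 9.67, 7.98, 15.1 and 14.9 CPM in cKO replicates 1 to 4. In WT replicates 1 to 4 it was at 3.96, 4.20, 3.42 and 1.90 CPM. As for Krt79, the highest cKO libraries were replicates 3 and 4 and the lowest WT library was replicate 4. The mean was 11.9 ± 3.64 CPM in cKO mice and 3.37 ± 1.03 CPM in WT mice (SD, n = 4 each), a 3.54-fold difference (log2 fold change 1.82 ± 0.30 SE, 95% confidence interval 1.15 to 2.50).

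Barx2, a homeobox factor of the follicle, overlapped between the genotypes. Its level was 80.1, 81.6, 85.8 and 57.5 CPM in cKO replicates 1 to 4, against 66.9, 69.5, 61.7 and 42.9 CPM in WT replicates 1 to 4. cKO replicate 4 lay within the WT range and the other 3 cKO libraries above it. The log2 fold change was 0.34 ± 0.18 SE, with a 95% confidence interval of -0.06 to 0.73 that includes no difference.

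The receptor and surface genes of the isthmus were Lgr6, Lrig1 and Plet1. Lgr6, a receptor for R-spondins that marks isthmus stem cells, was at 26.2, 30.0, 46.3 and 27.8 CPM in cKO replicates 1 to 4, against 17.6, 17.3, 13.4 and 12.1 CPM in WT replicates 1 to 4. No WT library reached the lowest cKO library, and cKO replicate 3 was above the other cKO libraries. Lgr6 averaged 32.6 ± 9.30 CPM in cKO mice and 15.1 ± 2.77 CPM in WT mice (SD, n = 4 each), a 2.16-fold difference (log2 fold change 1.11 ± 0.21 SE, 95% confidence interval 0.64 to 1.58).

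Lrig1, a transmembrane protein that restrains signalling by ErbB receptors and marks stem cells of the upper isthmus, was at 93.2, 93.9, 154 and 99.9 CPM in cKO replicates 1 to 4. It was at 111, 104, 91.0 and 73.7 CPM in WT replicates 1 to 4. Apart from cKO replicate 3, the cKO libraries lay within the WT range. The log2 fold change was 0.21 ± 0.19 SE (95% confidence interval -0.22 to 0.65), and 0.02 without cKO replicate 3.

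Plet1, the surface antigen by which keratinocytes of this region have been isolated, was the 1 member with a lower mean in cKO. It was at 74.1, 56.4, 92.9 and 117 CPM in cKO replicates 1 to 4, against 121, 95.4, 332 and 181 CPM in WT replicates 1 to 4. The genotypes overlapped in part, since cKO replicate 4 lay between WT replicates 2 and 1, and WT replicate 3 stood above every other library. Plet1 averaged 85.1 ± 25.9 CPM in cKO mice and 182 ± 106 CPM in WT mice (SD, n = 4 each). Its log2 fold change was -1.10 ± 0.38 SE (95% confidence interval -1.96 to -0.24), and -0.64 without WT replicate 3. Plet1 was not called (edgeR adjusted p = 0.171), and its interval is not adjusted for the number of genes tested.

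**Figure D2:**
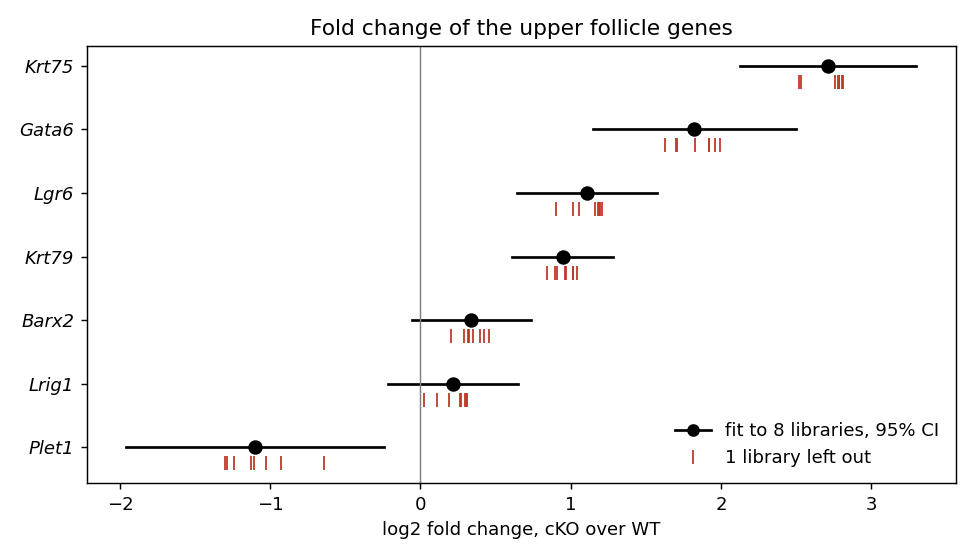
Log2 fold change of each upper follicle gene, cKO over WT, with the point and 95% confidence interval of the fit to 8 libraries and red ticks for the fits with 1 library left out. The intervals of Krt75, Gata6, Lgr6 and Krt79 lie above 0, those of Barx2 and Lrig1 include 0, and that of Plet1 lies below 0. These intervals are not adjusted for the number of genes tested, and Plet1 was not called.

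In the edgeR fit of all 14004 genes, 4 of the 7 members were called higher (Krt75, Krt79, Gata6 and Lgr6) and 0 lower, at a Benjamini-Hochberg adjusted p below 0.05. Over all tested genes 1.32% were called, 0.671% higher and 0.65% lower. For the same 4 members all cKO libraries were above all WT libraries, as for 5.26% of tested genes, and for none were all below, as for 5.82%. Since earlier values of this contrast entered the choice of members, nothing is read from these counts. The number called depended on single libraries: it was 4 without cKO replicate 2 or 4 and 1 without cKO replicate 1, cKO replicate 3 or any 1 WT replicate. Krt75 was the member called in each of these 8 fits.

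**Figure D3:**
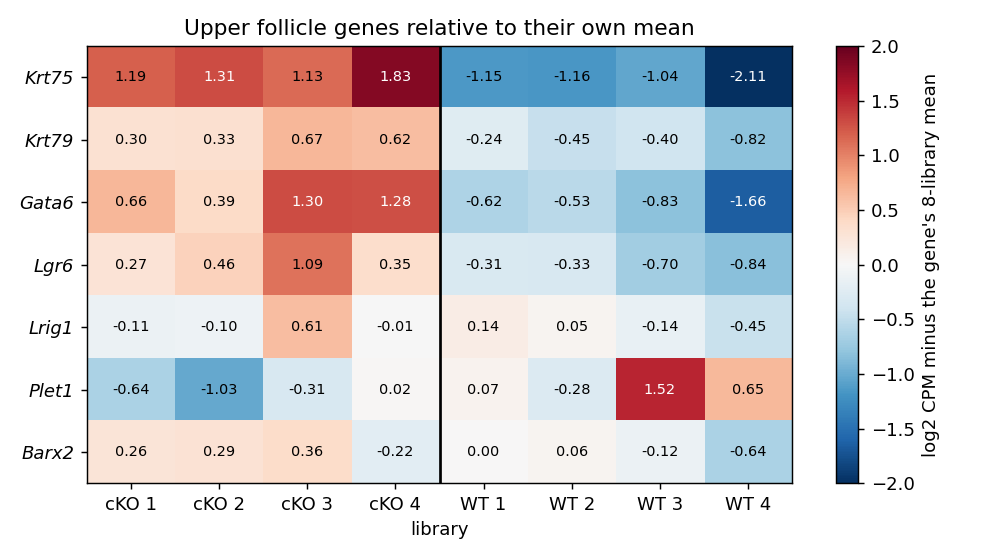
Log2 CPM of each upper follicle gene in each library, minus that gene's mean over the 8 libraries, with cKO libraries left of the line and WT libraries right. Krt75, Krt79, Gata6 and Lgr6 are positive in all cKO libraries and negative in all WT libraries, while Plet1 peaks in WT 3 and Lrig1 in cKO 3.

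The members were also compared in how they varied between libraries of the same genotype. With log2 CPM centred within each genotype, Pearson's r over the 8 libraries was 0.917 between Krt79 and Gata6, 0.715 between Krt75 and Krt79 and 0.714 between Krt75 and Gata6. It was 0.963 between the isthmus genes Lgr6 and Lrig1, with cKO replicate 3 the highest library for both, and 0.118 between Krt75 and Lgr6. Plet1 had centred r values of -0.449 to 0.144 with the other 6. These are descriptions over 8 libraries that share tissue, treatment and preparation.

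Among 10030 named genes that averaged 4 CPM or more, those closest to each member after centring were also listed. They were Mterf4, Ptpn4 and Nub1 for Krt79 (r from 0.961 to 0.975) and Armc10, Mterf4 and Mkrn1 for Gata6 (0.961 to 0.967). For Lgr6 they were Tgfbr3, Cib2 and Bcl11a (0.987 to 0.995), and for Lrig1 they were Bcl11a, Wls and Klc4 (0.973 to 0.981). Krt75 was closest to Zfp871, Slc35a5 and Rell1 (0.941 to 0.969), and Barx2 to Mt4, B3gat3 and Yipf1 (0.976 to 0.982). Those of Plet1 were Tnfaip3 and Nfkbiz, both regulators of NF-κB signalling, and Gmeb2 (0.979 to 0.988).

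Without centring, r also carries the difference between genotypes. Krt79 and Gata6 were then each other's near neighbours (0.986), Krt79 being also close to Pdzrn3 (0.984) and Ino80b (0.982), and Gata6 to Lzts2 (0.986) and Rbbp9 (0.985). Krt75 was closest to Pdzrn3 (0.984), Cryab (0.974) and Adgrg6 (0.971), and Lgr6 to Cracr2b (0.986), Oat (0.98) and Lzts2 (0.976). Lrig1 was closest to Klc4, Cstpp1 and Angel1 (0.965 to 0.973), Barx2 to B3gat3, Cnot6l and Arvcf (0.959 to 0.973). Plet1 was closest to Tiparp, Ankrd17 and Hbegf (0.967 to 0.979). Only 2 of the 21 pairs of member and neighbour were the same on both scales.

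Levels of different genes were compared per length, in the deposited FPKM, which divides counts by gene length and library total. Krt79 led in both genotypes, at 1355 ± 260 FPKM in cKO and 669 ± 116 FPKM in WT (SD, n = 4 each). Plet1 followed at 47.8 ± 17.2 FPKM in cKO and 96.1 ± 54.2 FPKM in WT, and Barx2 at 43.4 ± 6.87 FPKM in cKO and 33.0 ± 6.74 FPKM in WT, the ranges of Plet1 and Barx2 overlapping in cKO but not in WT. Lrig1 had 8.13 ± 2.53 FPKM in cKO and 6.67 ± 1.25 FPKM in WT, and Lgr6 had 4.70 ± 1.53 FPKM in cKO and 2.08 ± 0.41 FPKM in WT. In cKO Krt75 came between Barx2 and Lrig1, at 9.03 ± 2.57 FPKM, its range overlapping that of Lrig1, and in WT it had 1.31 ± 0.38 FPKM, below Lgr6. Gata6 was lowest in both, at 3.74 ± 1.35 FPKM in cKO and 0.998 ± 0.311 FPKM in WT, with a range that overlapped that of Lgr6 in cKO and that of Krt75 in WT.

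**Figure D4:**
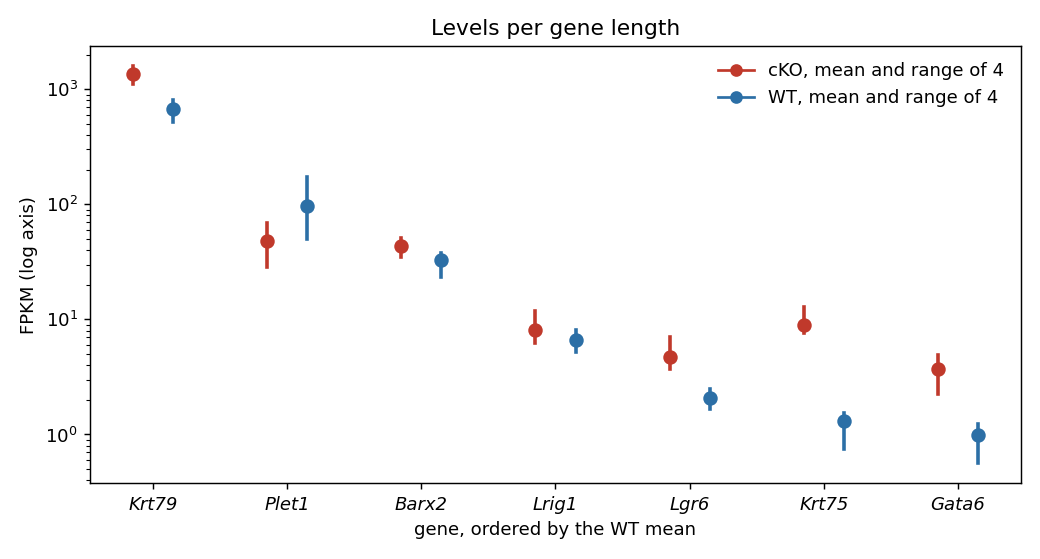
Level of each upper follicle gene in FPKM on a log axis, with the mean (point) and range (line) of 4 libraries, cKO left of WT, ordered by the WT mean. Krt79 stands above the other 6 genes in both genotypes, and Krt75 moves from below Lgr6 in WT to a mean above Lrig1 in cKO.

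Krt75 and Krt79 belong to the type II keratin cluster on chromosome 15. In the RefSeq gene order used here they lie 11th and 23rd of 26 keratin genes. That order lacks Krt74 and Krt85, and includes Krt88 and Krt18, which are not in the type II list used below. Krt79 made up 5.52%, 5.89%, 10.8% and 8.59% of summed type II keratin FPKM (23 genes) in cKO replicates 1 to 4, against 3.87%, 2.83%, 3.31% and 2.61% in WT replicates 1 to 4. Krt75 made up 0.0365% to 0.071% in cKO and 0.00372% to 0.00747% in WT, in both cases without overlap. The sum itself was 21040, 18680, 14760 and 18140 FPKM in cKO replicates 1 to 4, against 20000 to 23630 FPKM in WT mice. The shares in cKO replicates 2 to 4 therefore also carry a sum below that of every WT library. In cKO replicate 3, where the sum was lowest, Krt6a made up 1.58% of it.

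Of the 4 neighbours of these genes in the cluster, Krt6b and Krt78 were tested and neither was called. Krt6b, next to Krt75, averaged 2837 ± 1941 CPM in cKO mice and 6651 ± 1279 CPM in WT mice (SD, n = 4 each; edgeR adjusted p = 0.331), and Krt90 on its other side had at most 25 counts in every library. Krt78, next to Krt79, averaged 147 ± 94.8 CPM in cKO mice and 128 ± 51.0 CPM in WT mice (adjusted p = 0.855), and Krt4 on the other side had at most 10 counts. These neighbours, and Krt77 below, are named outside the rule for named genes, after their values were seen. Of 21 other listed type II keratins with counts deposited, 9 were tested and none was called, 4 lying above 0 and 5 below (median log2 fold change -0.03, against 0.01 over all tested genes). The abundant Krt1 (-0.22 ± 0.18 SE, edgeR adjusted p = 0.558) and Krt5 (-0.03 ± 0.19, adjusted p = 0.953) were among these, and the sign of Krt5 turned when single libraries were left out. Krt77 was above the WT libraries in all cKO libraries, but at 1349 CPM in cKO replicate 2 and 26.1 to 189 CPM in the other 3, against 5.65 to 24.8 CPM in WT mice (adjusted p = 0.109).

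Of 9 further genes of the infundibulum, sebaceous duct and isthmus, 8 had a fold change above 0, with a log2 median of 0.47, and 1 was called higher and none lower. It was Cst6, the cysteine protease inhibitor cystatin E/M, at 1852, 1684, 1924 and 2313 CPM in cKO replicates 1 to 4, against 667, 807, 447 and 341 CPM in WT replicates 1 to 4. Cst6 rose 3.44-fold (log2 fold change 1.78 ± 0.26 SE, edgeR adjusted p = 0.0262), with an adjusted p of 0.0552, 0.0584 and 0.079 without cKO replicate 1, WT replicate 1 and WT replicate 3. It was 0.0653 with limma on log2(FPKM + 1) without the filter on low values. The list was chosen with earlier results of these data known, so its count is no independent evidence of a direction.

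Defb6, a β-defensin of the upper follicle, was at 1537 ± 634 CPM in cKO mice and 655 ± 192 CPM in WT mice (SD, n = 4 each) without being called (log2 fold change 1.23 ± 0.30 SE, edgeR adjusted p = 0.0753). It had an adjusted p of 0.0395 without cKO replicate 2. Sostdc1, a secreted inhibitor of BMP and Wnt signals, was at 108 ± 33.7 CPM in cKO mice and 116 ± 34.5 CPM in WT mice (-0.10 ± 0.26, adjusted p = 0.880), and its sign turned when single libraries were left out. Fst, Gli1, Prdm1, Atp6v1c2 and Krt7, named after their values were seen, had log2 fold changes of 0.42 to 1.24, adjusted p-values of 0.114 to 0.558 and overlapping genotypes.

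The other keratins of the companion layer are also induced in inflamed interfollicular epidermis. None of 4 was called, 3 lay below 0 and 1 above (log2 median -0.89), and near-identical sequences make single Krt6 values uncertain. Krt6a was at 8107, 3897, 492 and 5777 CPM in cKO replicates 1 to 4, against 6405, 9395, 5727 and 9341 CPM in WT replicates 1 to 4 (-0.76 ± 0.62 SE, edgeR adjusted p = 0.556). Krt16 averaged 3511 ± 1986 CPM in cKO mice and 7121 ± 1035 CPM in WT mice (-1.02 ± 0.46, adjusted p = 0.276), with every cKO library below every WT library for both Krt16 and Krt6b. cKO replicate 3, with the highest Krt79, Gata6 and Lgr6 among all libraries, had the lowest Krt6a, Krt6b and Krt16.

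Around Lgr6, 10 of 13 R-spondin, Lgr and Wnt pathway genes in the table were tested and none was called (9 positive and 1 negative, median log2 fold change 0.17). Lgr4, a related R-spondin receptor, was at 54.7 ± 10.1 CPM in cKO mice and 38.8 ± 8.47 CPM in WT mice (SD, n = 4 each; log2 fold change 0.50 ± 0.18 SE, edgeR adjusted p = 0.181). Ctnnb1, β-catenin, was at 642 ± 64.9 CPM in cKO mice and 624 ± 17.3 CPM in WT mice (0.04 ± 0.10, adjusted p = 0.867). The third receptor, Lgr5, named after its value was seen, was at 8.53, 5.07, 9.50 and 5.71 CPM in cKO replicates 1 to 4, against 3.64, 2.88, 2.06 and 1.55 CPM in WT replicates 1 to 4. Its genotypes did not overlap (1.51 ± 0.31, adjusted p = 0.053). The R-spondin genes Rspo1, Rspo3 and Rspo4 had at most 4 counts in any library.

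Around Lrig1, 12 of 13 Lrig and ErbB family genes and ligands were tested and none was called (4 positive and 8 negative, median log2 fold change -0.17). Erbb3 was at 157 ± 31.9 CPM in cKO mice and 177 ± 22.4 CPM in WT mice (SD, n = 4 each; log2 fold change -0.18 ± 0.16 SE, edgeR adjusted p = 0.597). Ereg, the ligand epiregulin, was at 180 ± 53.7 CPM in cKO mice and 134 ± 82.9 CPM in WT mice (0.43 ± 0.39, adjusted p = 0.604). Further ligands are named after their values were seen. Areg (-1.48), Tgfa (-0.94) and Epgn (-0.87) had negative fold changes and overlapping genotypes (edgeR adjusted p = 0.0808 to 0.130). Btc was above the WT libraries in all cKO libraries (1.24 ± 0.30, adjusted p = 0.0747), and Egf was at 0.12 (adjusted p = 0.925). Hbegf, a ligand among the 3 genes closest to Plet1 over the 8 libraries, was at 34.4, 27.1, 33.7 and 68.5 CPM in cKO replicates 1 to 4, against 67.0, 53.9, 172 and 117 CPM in WT replicates 1 to 4. It peaked in WT replicate 3, as Plet1 did, and was not called (-1.33 ± 0.40, adjusted p = 0.128).

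Of the GATA and Barx families, 5 of the 8 listed genes were in the table, 2 were tested and none was called. Gata3, a factor of the inner root sheath and differentiating epidermis, was at 117 ± 47.7 CPM in cKO mice and 93.6 ± 16.4 CPM in WT mice (SD, n = 4 each; log2 fold change 0.32 ± 0.26 SE, edgeR adjusted p = 0.542). Zfpm1, a gene of a GATA cofactor, was at 20.9 ± 2.10 CPM in cKO mice and 22.4 ± 1.98 CPM in WT mice (-0.10 ± 0.11, adjusted p = 0.662). Gata1 and Gata2 had at most 3 counts in any library.

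**Figure D5:**
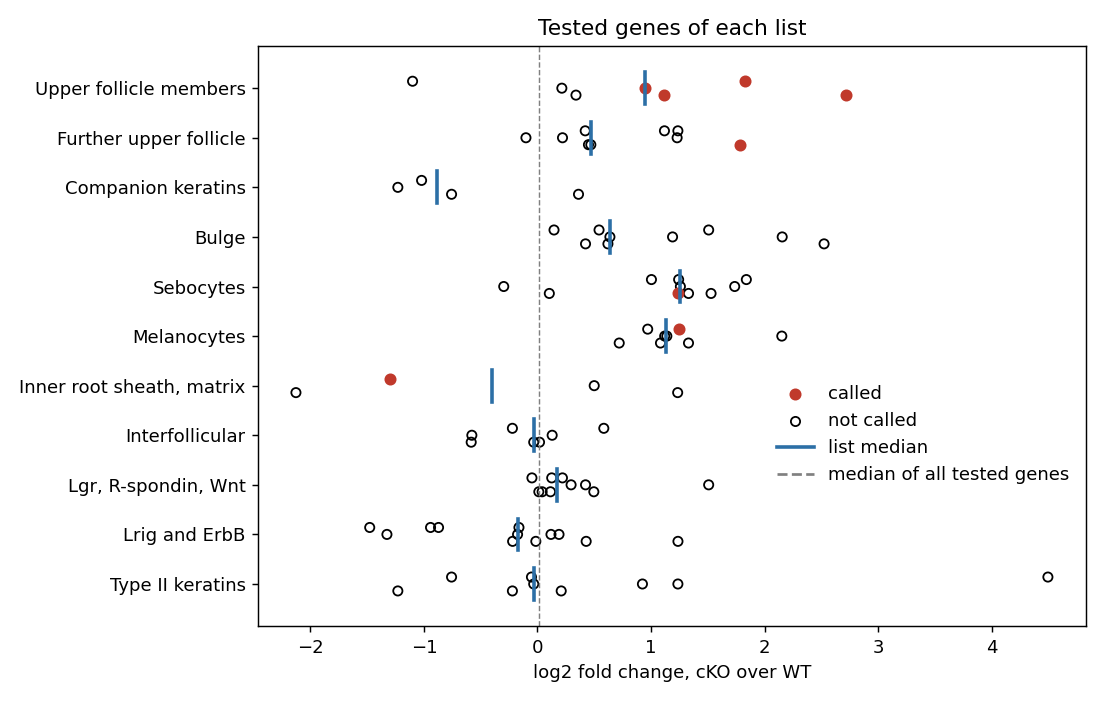
Log2 fold changes, cKO over WT, of the tested genes in each list, filled red where called in the fit of all genes and open where not, with the list median in blue and the median of all tested genes (0.01) as a dashed line. Bulge and melanocyte genes lie to the right of 0, while interfollicular genes lie on both sides.

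Markers of other cell types of the follicle and skin are given beside the upper follicle genes. All 9 bulge markers had a fold change above 0 (log2 median 0.64), none was called, and their summed level was 507 to 1452 CPM in cKO mice and 289 to 626 CPM in WT. Every cKO library was above every WT library for 5.26% of all tested genes and for 4 of the 7 upper follicle genes. This held for 3 of 10 sebocyte and 4 of 8 melanocyte markers. It held for 0 of the inner root sheath and matrix, interfollicular, fibroblast and leukocyte markers. Every cKO library was below every WT library for 5.82% of all tested genes. That was so for 2 of the 4 tested inner root sheath and matrix markers and 1 of the 7 interfollicular markers. It was so for 0 of the upper follicle genes and of the other cell type markers. Among the bulge markers every cKO library was above every WT library for 5 of the 9. These 5 are named after their values were seen: Cd34 (log2 fold change 2.52, edgeR adjusted p = 0.053), Fgf18 (2.15, adjusted p = 0.083), Lgr5 given above, Lhx2 (1.19, adjusted p = 0.0789) and Nfatc1 (0.54, adjusted p = 0.0652). Krt15 was at 637 ± 443 CPM in cKO mice and 410 ± 146 CPM in WT mice (SD, n = 4 each; 0.64 ± 0.44 SE, edgeR adjusted p = 0.475), with 1295 CPM in cKO replicate 3 alone and a log2 fold change of 0.04 without it. Sox9 was at 58.0 ± 15.5 CPM in cKO mice and 37.7 ± 7.19 CPM in WT mice (0.62 ± 0.21, adjusted p = 0.162). It had an adjusted p of 0.0469 without cKO replicate 2.

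Of 10 sebocyte markers 9 had a fold change above 0 (log2 median 1.25) and 1 was called higher, with summed levels of 1107 to 3393 CPM in cKO mice and 853 to 1458 CPM in WT. Cidea, a lipid droplet protein, rose 2.36-fold (1.24 ± 0.24 SE, edgeR adjusted p = 0.044). Its adjusted p was 0.0785 to 0.109 without cKO replicate 1, cKO replicate 3 or any 1 WT replicate. It was 0.0608 with limma-voom and 0.0547 with limma on log2(FPKM + 1), or 0.127 without the filter on low values. Scd1, a stearoyl-CoA desaturase, was at 1467 ± 745 CPM in cKO mice and 584 ± 192 CPM in WT mice (SD, n = 4 each; 1.33 ± 0.39, adjusted p = 0.118). It had an adjusted p of 0.0442 without cKO replicate 4. Fasn was at 239 ± 31.0 CPM in cKO mice and 223 ± 44.6 CPM in WT mice (0.10 ± 0.15, adjusted p = 0.768). In cKO replicate 4 the summed sebocyte level of 1107 CPM, of which Scd1 was 600.5 CPM, lay within the WT range. Of single markers in that library, Cidea, Awat2 and Pparg were above every WT library, and Plin2 barely so (75.8 CPM against at most 75.7 CPM). Scd1, Fasn, Soat1 and Elovl3 lay within the WT range, and Mgst1 and Mc5r below it. Those outside the rule for named genes were named after their values were seen.

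All 8 melanocyte markers had a fold change above 0 (log2 median 1.13) and 1 was called higher, with summed levels of 60.6 to 121 CPM in cKO mice and 34.8 to 53.5 CPM in WT. Mitf, the melanocyte lineage factor, rose 2.37-fold (1.24 ± 0.17 SE, edgeR adjusted p = 0.02). Its adjusted p was 0.0509, 0.079 and 0.071 without cKO replicate 1, WT replicate 3 and WT replicate 4. With limma on FPKM values the call was also lost, at 0.45 on the log2(FPKM + 1) scale (adjusted p = 0.058), which understates the change of low genes, and 1.09 on the log2(FPKM + 0.1) scale (adjusted p = 0.0539). Dct, an enzyme of pigment synthesis, had a log2 fold change of 1.08 ± 0.29 (adjusted p = 0.0905), and its relative Tyrp1 one of 1.14 ± 0.26 (adjusted p = 0.06). Neither was called, and they had adjusted p-values of 0.0486 and 0.0374 without cKO replicate 2.

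Of 10 inner root sheath and matrix markers, 6 had too few counts to be tested, 2 of the 4 tested were positive and 2 negative, and the list had summed levels of 18.5 to 22.7 CPM in cKO mice and 21.7 to 43.1 CPM in WT. The inner root sheath keratin genes Krt71, Krt72, Krt73 and Krt25 had at most 38 counts in any library. Tchh, trichohyalin, was called lower (log2 fold change -1.30 ± 0.23 SE, edgeR adjusted p = 0.0337). In 7 of the 8 fits without 1 library its adjusted p was 0.0528 to 0.079, all except that without cKO replicate 2. It was 0.0547 with limma on log2(FPKM + 1), and 0.129 without the filter on low values. Krt27, named after its values were seen, was also lower in every cKO library but not called (-2.13 ± 0.61, edgeR adjusted p = 0.110). It had at most 78 counts in any library. Hoxc13 (1.23 ± 0.34, adjusted p = 0.097, and 0.0373 without cKO replicate 2) and Krt28 (0.50 ± 0.63, adjusted p = 0.720) were not called, and the sign of Krt28 turned without cKO replicate 3.

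Interfollicular markers summed to 63210 to 93530 CPM in cKO mice and 72060 to 94850 CPM in WT. None of the 7 was called, 3 being positive and 4 negative (median log2 fold change -0.03). Krt10 was at 0.02 ± 0.22 SE (edgeR adjusted p = 0.980), with a sign that turned when single libraries were left out. Ly6d, Krt14 and Flg are named after their values were seen. Ly6d was at 1318 to 1928 CPM in cKO mice and 2101 to 2530 CPM in WT mice, without overlap (-0.58 ± 0.13, adjusted p = 0.06). Krt14 (-0.58 ± 0.24, adjusted p = 0.246) and Flg (0.58 ± 0.42, adjusted p = 0.495) had overlapping genotypes. Fibroblast markers summed to 36.0 to 116 CPM in cKO mice and 48.1 to 91.8 CPM in WT, nearly all of it Vim (0.11 ± 0.39, adjusted p = 0.915), which other cells also express. Of the 5 tested none was called, 2 being positive and 3 negative, and Col3a1 was at -1.48 ± 0.83 (adjusted p = 0.377), and at -0.25 without WT replicate 2. Leukocyte markers summed to 24.7 to 53.3 CPM in cKO mice and 36.7 to 52.4 CPM in WT. Of the 6 tested none was called, 1 being positive and 5 negative, with Ptprc at -0.11 ± 0.33 (adjusted p = 0.898) and Lyz2 at -0.43 ± 0.41 (adjusted p = 0.615). The signs of Vim and Ptprc turned when single libraries were left out. The part that the number of follicles or of these cells in a sample has in the levels of the upper follicle genes was not tested.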

How the data were processed

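RNA-seq of epidermis from 8 imiquimod-treated mice, 4 cKO and 4 WT by their titles, was analysed. The authors deposited whole-number read counts per gene symbol, made with HISAT2 and HTSeq per the submitters' processing notes, and FPKM values. For 20863 of 20863 genes with counts in at least 2 libraries the deposited FPKM implied the same length in all libraries (relative tolerance 1e-04), so both tables hold the same reads. No source used here states their versions, the genome build, the annotation or the strand setting, so reads of overlapping or antisense genes could not be told apart. Each genotype had 4 mice per the labels, which put all libraries in 1 batch.

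Counts were filtered with filterByExpr at its default settings, scaled by TMM and tested with the edgeR 4.0.16 quasi-likelihood test (R 4.3.3) without covariates, with Benjamini-Hochberg adjustment over 14004 genes and a call at 0.05. The test was checked on simulated counts. Standard errors come from the F statistic. Pearson's r used log2 CPM with a prior count of 2. No pair of libraries of a genotype agreed within sampling noise (lowest chi-square per degree of freedom 47.9).

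The members and lists were chosen with earlier results of these data known. The values of 1 listed gene are not reported here. Named genes are the members, Hnrnpu, the called genes and the 2 most abundant uncalled genes of each list, and 3 genes per member by r on each scale. Alternatives were RLE or library-size scaling, other filters, DESeq2 1.42.0, limma 3.58.1 on voom or log2 FPKM values, a replicate block, and each library left out.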

Additional observations from a re-analysis of the deposited data

Results flagged for a closer look

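The outlier screen covered 146 groups of 4 libraries, with those of Krt79 and Gata6 counted again as nearest genes. In 10 of them the highest or lowest library was flagged. Its gap to the nearest, as a share of the group's range, exceeded Dixon's 95% critical value. By chance about 1 in 20 groups is flagged. Lrig1 was at 154 CPM in cKO replicate 3 and at most 99.9 CPM in the other cKO libraries, a gap of 0.889 of the range. The bulge keratin gene Krt15 was also highest in cKO replicate 3 (1295 CPM against 500 CPM for the next, 0.839). Among the genes nearest to Lgr6 and Lrig1 the same library was highest for Bcl11a (33.4 CPM against 22.4, 0.955), Cib2 (27.5 CPM against 17.0, 0.836), Cstpp1 (17.0 CPM against 10.2, 0.92) and Klc4 (9.79 CPM against 5.97, 0.855), which were named for their likeness to genes that are high there. Krt75 was lowest in WT replicate 4, at 2.49 CPM against 4.84 CPM for the next WT library, a gap of 0.843 of the range. The genes nearest to Krt75 after centring also stood apart in replicate 4, which follows from their being named for likeness to Krt75. They were Zfp871 as the lowest WT library (47.2 CPM against 52.6, 0.837), and Rell1 (57.0 CPM against 52.0, 0.966) and Slc35a5 (18.0 CPM against 15.8, 0.834) as the highest cKO library.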

How the results depend on the processing

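Each of the 7 members kept its direction under all 18 alternatives, which for the 4 members without overlap between genotypes follows from that lack of overlap. Among the 10 alternatives that kept all libraries, Krt75 was called in 10, Krt79 and Gata6 in 8 and Lgr6 in 7, and Plet1 was called as lower with DESeq2 only. Members called numbered 1 with limma on log2(FPKM + 1) without a filter on low values, 1 with the replicate block, and 1 to 4 with 1 library left out. All called genes numbered 349 without the low-count filter, 1208 with DESeq2, 19 with limma on unfiltered log2(FPKM + 1), and 8 to 506 with 1 library left out, against 185. Called pathway genes numbered 2 with library-size scaling, 2 without the low-count filter, 11 with DESeq2, 0 with limma on unfiltered log2(FPKM + 1), 3 with the replicate block and 0 to 4 with 1 library left out, against 1. The cause of these changes was not tested. Same-numbered libraries had centred correlations of -0.101, 0.127, 0.103 and 0.192 and were taken to share only a number, since replicate 1 fell below 0.1, and 4 of 8 libraries correlated best with their own number. The calls lost with the replicate block were those of Krt79, Gata6 and Lgr6 among the members, and that of Cidea among the markers (adjusted p = 0.0832). Of 21 nearest genes 2 were shared after centring within genotype. The fold change of Krt5 turned to 0.0298 with library-size scaling and 0.0278 in each of the 3 FPKM fits. Leaving out 1 library, log2 fold changes with a turned sign ran from -0.14 to 0.11 for Krt5, -0.28 to 0.0873 for Sostdc1, -0.11 to 0.17 for Krt10, -0.19 to 0.34 for Vim, -0.0241 to 1.21 for Krt28 and -0.30 to 0.10 for Ptprc. With all 8 libraries, log2 fold changes had 95% confidence intervals of -0.22 to 0.65 for Lrig1 and -0.06 to 0.73 for Barx2. The smallest difference that 4 libraries per genotype could detect was not tested.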
